A study of Mus musculus with 2 samples.

Results

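Macrophages of MC38 tumours that carried transcripts of Cx3cr1, Pf4, Gatm, Ckb and Itgb5 were described in 2 single-cell libraries. MC38 is a mouse colon carcinoma line, grown here in female C57BL/6 mice. One library came from tumours of mice given LC427, a compound known only by its code name, and the other from tumours of mice given vehicle, all taken on day 14. The tumours were digested with collagenase and DNase, and bead steps removed dead cells and then kept cells with CD45, which leucocytes carry on their surface. According to its title the series targets LRBA and seeks the breakdown of CTLA4. No genotype other than the strain is given, the genotype label repeats the treatment, and how many mice each library holds is not stated in the labels.

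A cell barcode was counted as a cell when it held at least 1000 UMIs (unique molecular identifiers, 1 for each captured transcript), at least 400 genes and at most 10% mitochondrial UMIs. It passed the myeloid gate when it held a UMI of Csf1r, C1qa or Lyz2 and none of Cd3e or Ncr1. Gated cells were then scored by how many genes they held of each of 5 sets of 5 genes. Set A was Cbr2, Gas6, Folr2, Fcrls and Vcam1. Set B was Dpep2, Trem1, F10, Cdh1 and Clec5a. Set C was Ly6i, Fpr2, Plac8, Nos2 and Ly6c2. Set D was Mmp13, Hilpda, Pmp22, Fabp5 and Mt2. Set E was Pf4, Gatm, Ckb, Cx3cr1 and Itgb5. The members were the cells with at least 2 genes of set E and more of set E than of any other set. They numbered 2952 of 8619 gated cells and of 11573 cells in all, with 1505 in the LC427 library and 1447 in the vehicle library. The same rule run with the other 4 sets gave the classes that are called set A to set D cells here, and a gated cell that the rule gave to no set is called a cell of no class.

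Tissue macrophages and monocytes share much of their transcriptome, and tumours hold mixtures in which markers of both run in gradients. CX3CR1 is the receptor of the chemokine fractalkine and marks patrolling monocytes, microglia and several resident macrophages. GATM carries out the first step of creatine synthesis and CKB is the brain-type creatine kinase, which passes phosphate between ATP and creatine. ITGB5 is the integrin beta chain that pairs with the alpha V chain in the uptake of dying cells. PF4 (CXCL4) is a chemokine best known from platelets that macrophages also make, and LGMN (legumain) is a protease of the lysosome.

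By level, Cx3cr1, Ckb, Gatm and Itgb5 were highest in members among the classes, while Pf4 and Lgmn were highest in set A cells. Cx3cr1, Ckb and Gatm, together with Pf4 and Lgmn, are the markers behind the label of these cells. Since the rule used set E, the levels of its genes are a description of the choice and do not show how well each gene separates the cells. Cx3cr1 (ENSMUSG00000052336, GRCm38 chromosome 9, 119901616 to 120069879, minus strand) had 304 CPM (UMIs of the gene scaled to a fixed total for each class) in LC427 members, against 278 CPM in vehicle members. In LC427 the other classes lay between 18.1 CPM in set C cells and 134 CPM in set A cells, and in vehicle between 19.3 CPM in set D cells and 103 CPM in set A cells. Members thus had the highest level of Cx3cr1 of any class in both libraries. Ckb (ENSMUSG00000001270, GRCm38 chromosome 12, 111669361 to 111672338, minus strand) had 190 CPM in LC427 members and 152 CPM in vehicle members. The highest other class, cells of no class, had 59.4 CPM of Ckb in LC427 and 64.6 CPM in vehicle. Gatm (ENSMUSG00000027199, GRCm38 chromosome 2, 122594467 to 122611303, minus strand) had 652 CPM in LC427 members and 693 CPM in vehicle members. In vehicle the set A cells came near to this, with 506 CPM of Gatm, against 187 CPM in the LC427 set A cells. Itgb5 (ENSMUSG00000022817, plus strand of chromosome 16 in GRCm38, 33829665 to 33949338) had 165 CPM in LC427 members and 164 CPM in vehicle members. Set A cells came next with 75.8 CPM in LC427 and 76.6 CPM in vehicle.

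Pf4 (ENSMUSG00000029373, plus strand of chromosome 5 in GRCm38, 90772435 to 90773383) had 1612 CPM in LC427 members and 1900.5 CPM in vehicle members. Set A cells had 4013 CPM of Pf4 in LC427 and 3265 CPM in vehicle, and set D cells in LC427 had 1782 CPM. Empty droplets, taken as barcodes of 10 to 100 UMIs, had 1231 CPM of Pf4 in LC427 and 1228 CPM in vehicle. The part of free RNA in the Pf4 level of members was not tested. Lgmn (ENSMUSG00000021190, GRCm38 chromosome 12, 102394084 to 102439813, minus strand), which the rule did not use, had 1357 CPM in LC427 members and 1307 CPM in vehicle members. Set A cells were again higher, with 2310 CPM of Lgmn in LC427 and 2326 CPM in vehicle. Over all other gated cells together, members had 6.00 times the Cx3cr1 CPM in LC427 and 4.15 times in vehicle, but 1.51 times and 1.25 times the Pf4 CPM, and 1.91 times and 1.34 times the Lgmn CPM.

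**Figure D1:**
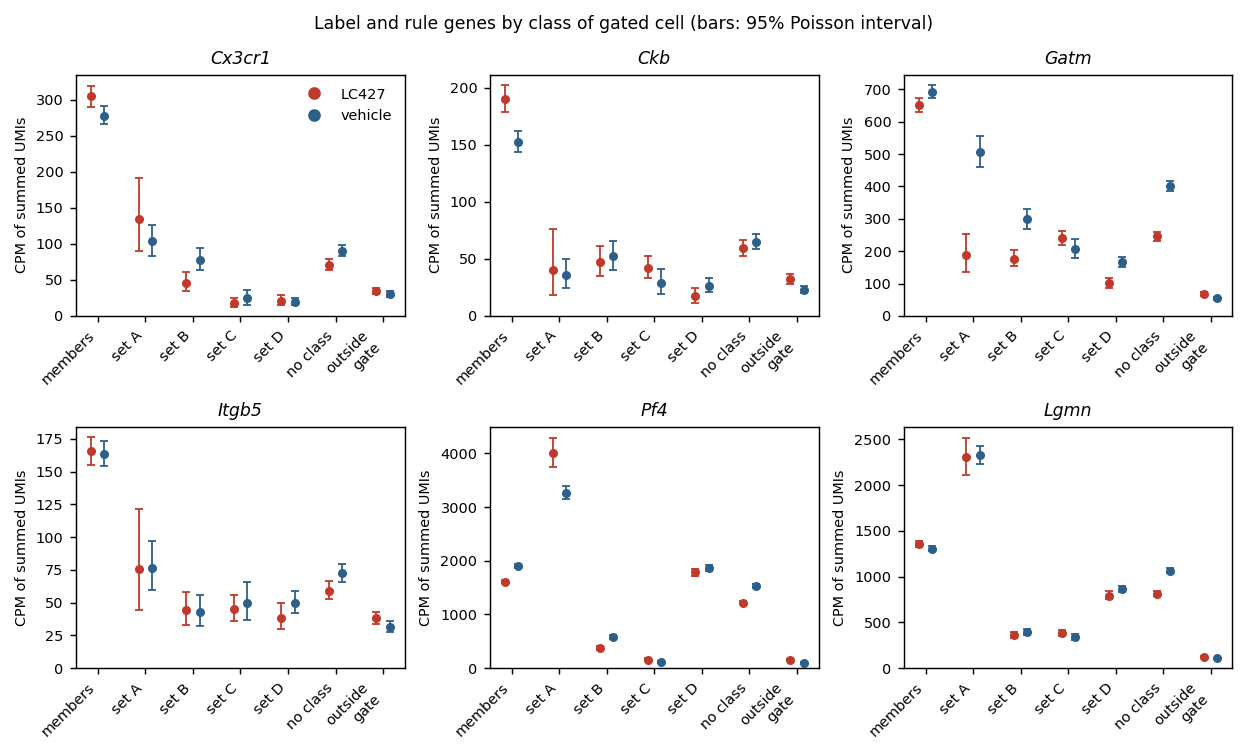
Level of the 5 genes of set E and of Lgmn (vertical axis, CPM of UMIs summed over the cells of a class) in members, in the classes of sets A to D, in gated cells of no class and in cells outside the gate, with LC427 in red left of vehicle in blue and bars for the 95% Poisson interval. Members are highest for Cx3cr1, Ckb, Gatm and Itgb5, while set A cells are highest for Pf4 (4013 CPM in LC427, 3265 CPM in vehicle) and Lgmn.

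For 3 genes of the rule the 250 bases before the RefSeq transcription start (GRCm38.p6) are printed, since Gatm and Ckb lead the description of the members and Pf4 is the gene of the label whose level was highest in another class. Each is given 5′ to 3′ on the strand of its gene, with motif matches in capitals. The motifs searched on both strands were the TATA box TATAAA, the CCAAT box CCAAT, the GATA motif AGATAA, the PU.1 core GAGGAA, the AP-1 motif TGANTCA and the C/EBP motif TTGCNNAA.
Gatm, chr2:122611278-122611527, minus strand: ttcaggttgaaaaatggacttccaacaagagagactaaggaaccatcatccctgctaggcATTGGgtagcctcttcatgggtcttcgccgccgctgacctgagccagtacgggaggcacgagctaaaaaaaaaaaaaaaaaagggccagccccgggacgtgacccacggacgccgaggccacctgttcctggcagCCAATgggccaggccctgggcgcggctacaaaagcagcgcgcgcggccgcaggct
Ckb, chr12:111672339-111672588, minus strand: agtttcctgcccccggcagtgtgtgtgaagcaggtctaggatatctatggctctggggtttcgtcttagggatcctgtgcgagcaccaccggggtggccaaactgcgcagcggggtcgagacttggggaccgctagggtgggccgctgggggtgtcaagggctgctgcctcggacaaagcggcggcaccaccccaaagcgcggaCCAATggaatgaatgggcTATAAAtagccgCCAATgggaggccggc
Pf4, chr5:90772185-90772434, plus strand: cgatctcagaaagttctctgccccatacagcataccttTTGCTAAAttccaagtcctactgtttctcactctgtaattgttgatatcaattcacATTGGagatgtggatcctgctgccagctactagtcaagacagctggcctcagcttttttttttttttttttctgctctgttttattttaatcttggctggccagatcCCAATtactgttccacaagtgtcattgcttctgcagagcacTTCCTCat
Of 32851 RefSeq promoters of 250 bases, 33.8% held a CCAAT box on either strand and 12.4% a TATA box. All 3 windows held a CCAAT box on the gene's strand, 55 bases before the start in Gatm, 46 and 16 bases before it in Ckb, and 49 bases before it in Pf4. Gatm and Pf4 each held a second one on the opposite strand, 190 and 156 bases before the start. Ckb alone of the 3 held a TATA box, 28 bases before the start. The Pf4 window held a PU.1 core on the opposite strand 8 bases before the start and a C/EBP motif 212 bases before it, which 23.3% and 9.56% of promoters held. No GATA or AP-1 letters lay in these windows, against 9.99% and 6.75% of all promoters. Positions count from the RefSeq start. In GENCODE, the source of the gene coordinates above, Gatm starts further upstream, and 26 of the 250 bases of its window lie in exons. Matches of letters are descriptions and not sites of binding.

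The LC427 library held 28732435 UMIs and 6328 cells, and the vehicle library 33711726 UMIs and 5245 cells, after 12 and 137 barcodes were removed for their mitochondrial share. Members had a median of 2974 UMIs and 1248 genes in LC427, against 4100 UMIs and 1478 genes in vehicle, and the other gated cells were shallower in LC427 too, at 2174 against 3377.5 UMIs. The median mitochondrial share of members was 1.5% in LC427 and 2.36% in vehicle. The libraries shared 49 barcodes among their cells, 24 members lay on such a barcode, and 1 barcode was a member in both. Ctla4 and Lrba were low in members. Lrba had 9.74 CPM in LC427 members and 8.20 CPM in vehicle members, below the 20.5 CPM and 14.4 CPM of empty droplets, with a ratio of 1.19 (0.804 to 1.76). Ctla4 had 10.3 CPM in LC427 members and 2.83 CPM in vehicle members, also below empty droplets at 31.2 CPM and 22.8 CPM. With 1 library a group no test between groups is possible, differences have no replicate check, and the 95% intervals given cover counting error alone. A gene at 0 UMIs in members could have had up to 3 UMIs, or 0.552 CPM in LC427 and 0.424 CPM in vehicle.

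Genes that mark other cell types were also summed. Those of the T cell, NK, tumour or stroma and dendritic lists were lower in members than in the cells outside the gate. The gate left out every cell with a Cd3e or Ncr1 UMI and required a UMI of Csf1r, C1qa or Lyz2. The gaps of the T cell and NK lists to cells outside it were thus partly set by the choice. Summed levels of 8 platelet genes were 6.99 CPM in LC427 members and 4.38 CPM in vehicle members, where empty droplets had 6.72 CPM in LC427 and 5.69 CPM in vehicle. The platelet genes Gp9, Tubb1 and Gp6 were at 0 in members of both libraries. The T cell list reached 44.7 CPM in LC427 members and 26.1 CPM in vehicle members, against 890 CPM and 1211 CPM outside the gate. The NK list stood at 72.8 CPM and 49.5 CPM, below the 384 CPM and 518 CPM of empty droplets. All 3 tested T cell genes, Cd3d, Trac and Trbc2, were at least 1.5-fold higher in LC427 members than in vehicle members. So were 2 of 4 tested NK genes, Nkg7 and Gzma, and 8.12% of all 9419 genes tested. The T cell genes rested on few UMIs, Cd3d on 44 in LC427 members and 38 in vehicle members. Without the top member of each library, the intervals of the ratio were 0.995 to 2.71 for Cd3d, 1.35 to 5.70 for Trac and 1.03 to 3.52 for Trbc2. The part of these genes in the other differences was not tested. Tumour and stroma genes summed to 101 CPM in LC427 members and 168 CPM in vehicle members, against 1201 CPM and 1463 CPM outside the gate. The neutrophil list stood at 31.8 CPM and 29.4 CPM with Ly6g at 0 in both. The conventional dendritic list summed to 109 CPM in LC427 members and 94.5 CPM in vehicle members, above the 86.0 CPM and 55.8 CPM found in empty droplets, and the mature dendritic list to 56.8 CPM and 77.4 CPM. B cell genes summed to 15.4 CPM in LC427 members and 97.8 CPM in vehicle members, where 559 of 660 Ighm UMIs lay in 1 member. Monocyte genes reached a higher sum, with 800.0 CPM in LC427 members and 824 CPM in vehicle members, though below the 1722 CPM and 1374 CPM of the other gated cells. Plac8 and Ly6c2 of this list are genes of set C, whose count limited which cells became members. In LC427 they had 622 and 182 CPM in other gated cells, against 117 and 24.3 CPM in members. In vehicle they had 286 and 110 CPM, against 45.9 and 24.3 CPM. The gap to other gated cells was thus partly set by the choice. Empty droplets held 1034 CPM of monocyte genes in LC427 and 820 CPM in vehicle.

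Members were a smaller share of the gated cells in LC427 than in vehicle. They were 31.8% of them in LC427 (exact Clopper-Pearson interval 30.5% to 33.2%), against 37.2% in vehicle (35.7% to 38.7%), a ratio of 0.856 (0.807 to 0.907). Of all cells they were 23.8% in LC427 and 27.6% in vehicle. When every cell was thinned to 1000 UMIs before the rule, members were 20.7% of gated cells in LC427 and 26.4% in vehicle, a ratio of 0.782 (0.723 to 0.846). With cells of at least 2000 UMIs only, the ratio was 0.977, so the size of this difference turned on how shallow cells were treated. Among the other classes, set C cells, whose genes include the monocyte genes Ly6c2 and Plac8, were 16.8% of gated cells in LC427 and 7.68% in vehicle. Set A cells were 1.31% in LC427 and 5.22% in vehicle, and set D cells 7.30% and 11.3%. Since all classes share a total, the share of one moves with that of the others.

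To give each rule gene a value that did not choose the cells, members were chosen again with the 4 other genes of set E, and the left-out gene was counted in cells thinned to 1000 UMIs. Cx3cr1 was then found in 20.4% of LC427 members, against 10.8% of other gated cells and 4.16% of cells outside the gate. In vehicle it was found in 19.8% of members, 11.2% of other gated cells and 2.67% outside the gate. The intervals of the Cx3cr1 enrichment overlapped between libraries, with share ratios of members over other gated cells of 1.90 (1.60 to 2.25) in LC427 and 1.76 (1.49 to 2.10) in vehicle. Gatm was found in 41.1% of LC427 members and 24.6% of other gated cells, and in vehicle in 40.7% and 31.1%. Ckb was found in 14.2% and 7.46% in LC427, but in 9.27% and 7.44% in vehicle, where the share ratio of 1.25 (0.976 to 1.59) had an interval that held 1. Itgb5 was found in 15.2% of LC427 members and 8.35% of other gated cells, and in vehicle in 12.7% and 9.61%. For Pf4 the shares were 51.5% and 35.3% in LC427 and 61.7% and 49.99% in vehicle. By level Pf4 had 1690 CPM in LC427 members against 1484 CPM in other gated cells, and 1898 CPM against 1977 CPM in vehicle, where members were not the higher. The left-out gene was thus found in more members than other gated cells for all 5 genes in both libraries, but it was also present in many cells of the rest.

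The border of the rule cut through a gradient. Just inside it, the 405 LC427 members and 300 vehicle members with 2 genes of set E and 1 of another set had 154 CPM and 81.8 CPM of Cx3cr1. Just outside, the 443 LC427 cells and 619 vehicle cells where set E tied with another set at 2 or more genes had 109 CPM and 133 CPM of Cx3cr1. In vehicle the cells left out by a tie thus had more Cx3cr1 than those just inside, and they were also deeper, at a median of 4565 UMIs against 2609.5 UMIs. Gatm was 522 CPM inside and 404 CPM at the tie in LC427, and 567 CPM and 517 CPM in vehicle.

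Members differed among themselves along the number of set E genes they held. In LC427, 523 members held 2 of the 5 genes, 541 held 3, 336 held 4 and 105 held all 5, and in vehicle 372, 498, 403 and 174 did. Depth moved with this number, with a median of 2253 UMIs at 2 genes and 5024 UMIs at 5 genes in LC427, and 2410.5 UMIs and 6812.5 UMIs in vehicle. Pf4 and Gatm were found together most often, in 60.3% of LC427 members and 73.5% of vehicle members, and Ckb and Itgb5 least often, in 19.5% and 22.3%.

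Genes typical of mature macrophages were higher where more set E genes were found. C1qa, a chain of the complement recognition molecule C1q, had 1168, 1523, 1718 and 2013 CPM in LC427 members with 2, 3, 4 and 5 genes, and 1026, 1545, 1806 and 2153 CPM in vehicle members. It was higher at each step in both libraries. Adgre1, which encodes the macrophage antigen F4/80, had 69.4, 105, 140 and 139 CPM in LC427 members and 114, 142, 157 and 183 CPM in vehicle members. Ccl12, a chemokine that draws monocytes, had 404, 601, 876 and 1017 CPM in LC427 members and 466, 815, 784 and 1477 CPM in vehicle members. The MHC class II gene H2-Aa ran the other way, with 2126, 1923, 1479 and 1356 CPM in LC427 members and 2221, 1746, 1605 and 1592 CPM in vehicle members. Ccr2, the receptor by which monocytes enter tissue, had 272, 286, 185 and 165 CPM in LC427 members and 233, 181, 150 and 126 CPM in vehicle members. Members with few set E genes thus had more H2-Aa and Ccr2 and less C1qa and Adgre1. In thinned cells with 2 and 3 set E genes, H2-Aa had 1538 and 1226 CPM in LC427 and 1295 and 926 CPM in vehicle. C1qa had 1668 and 1804 CPM in LC427 and 1651 and 1855 CPM in vehicle, smaller steps than with all UMIs, and the LC427 values rested on 1091 and 415 UMIs. Ccr2 had 219 and 204 CPM in thinned LC427 members, the opposite order to that with all UMIs, and 158 and 124 CPM in vehicle. For Ccl12 the thinned order remained in LC427, at 792 and 878 CPM, but not in vehicle, at 1091 and 1008 CPM.

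**Figure D2:**
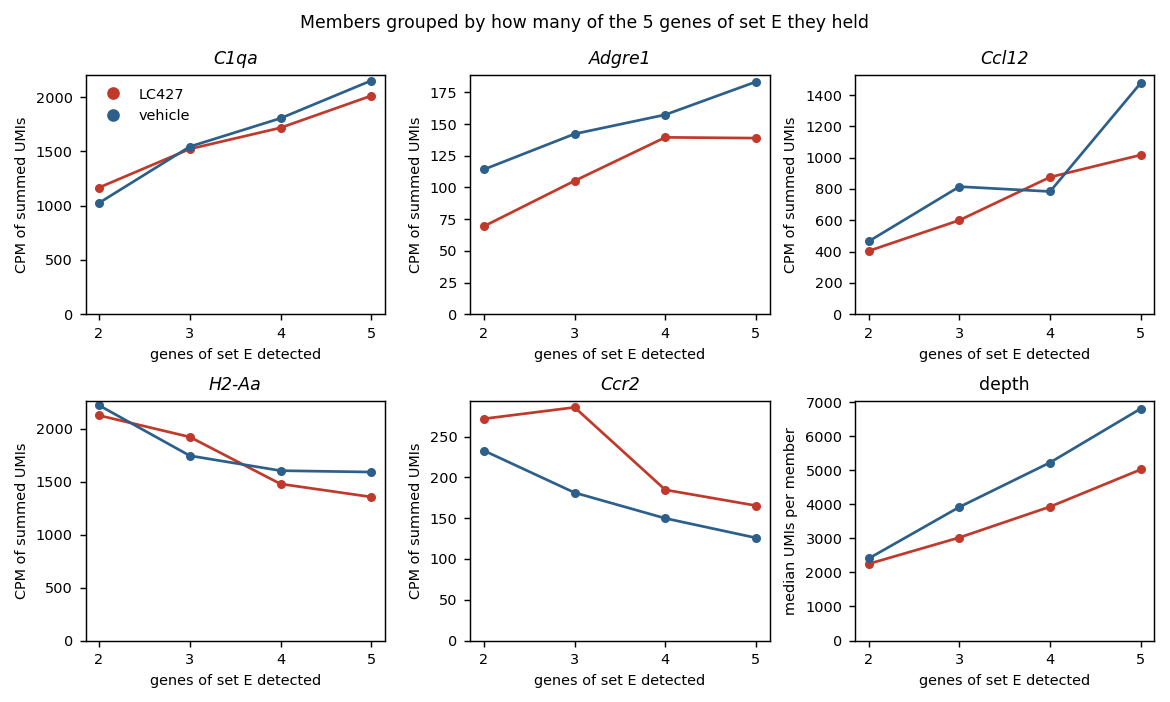
Level of 5 genes (vertical axes, CPM of UMIs summed over members) and median UMIs a member, by the number of set E genes detected (horizontal axes, 2 to 5), for LC427 in red and vehicle in blue. C1qa is higher with each added gene and H2-Aa lower, while depth also differs, up to a median of 5024 UMIs in LC427 and 6812.5 UMIs in vehicle at 5 genes.

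Against the other gated cells, genes such as Ms4a7, Aif1 and Slamf9 and several cell cycle genes were higher in members, and genes known from dendritic, lymphoid and stromal cells were among the lower ones. This is a description, since the same cells were chosen by their transcripts. Of 9419 genes with at least 50 UMIs in members of both libraries together, 1.45% were at least 1.5-fold higher in members in both libraries, and 3.64% were at least 1.5-fold lower in both. Of the 5 genes of set E, 4 were higher in both, all but Pf4. The named genes are ranked by the smaller of their 2 ratios and leave out the rule's own.

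Ms4a7, a tetraspan surface protein of macrophages, had 245 CPM in LC427 members against 108 CPM in other gated cells, and 429 CPM against 250.4 CPM in vehicle. Ccl12 had 674 CPM against 284 CPM in LC427, and 877 CPM against 513 CPM in vehicle. Both genes were higher still in set A cells, at 611 CPM of Ms4a7 and 1766 CPM of Ccl12 in LC427 and 714 CPM and 1522 CPM in vehicle, and so were not particular to members. Aif1, the calcium-binding protein IBA1, had 589 CPM in LC427 members against 359 CPM in other gated cells, and 596 CPM against 368 CPM in vehicle. Set C cells came near to members, with 558 CPM of Aif1 in LC427 and 548 CPM in vehicle. Vehicle set A cells had 573 CPM, so high Aif1 was not particular to members. Cd72, a receptor of the C-type lectin family, had 116 CPM against 49.2 CPM in LC427, and 128 CPM against 78.5 CPM in vehicle. Slamf9, of the SLAM family of receptors, had 135 CPM against 72.7 CPM in LC427, and 94.96 CPM against 55.3 CPM in vehicle. Slamf9 was higher in members than in each of the 4 other classes in both libraries. Itga6, an integrin alpha chain for laminin, had 62.5 CPM against 25.6 CPM in LC427, and 55.8 CPM against 31.9 CPM in vehicle. The other named genes of this group were Fgd2, an exchange factor for CDC42, Rab3il1, an exchange factor for Rab proteins, Ctla2b and Ntpcr, at 1.66 to 2.25 times the level of other gated cells. Rab3il1, Ctla2b and Ntpcr were higher in set A cells than in members in both libraries, with 161, 98.1 and 89.2 CPM in LC427 set A cells against 88.3, 37.5 and 68.4 CPM in LC427 members. Itga6, Fgd2 and Cd72 were higher in set A cells in vehicle, at 65.5, 49.95 and 132 CPM, against 55.8, 42.7 and 127 CPM in members. Of 19 chemokine genes tested, Ccl12 was at least 1.5-fold higher than in other gated cells in both libraries and 4 were lower, Ccl5, Ccl6, Ccl22 and Cxcl3.

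Several cell cycle genes were also higher in members than in the sum of the other gated cells. Cdk1, the kinase of mitotic entry, was 1.99 times the level of other gated cells in LC427 and 1.67 times in vehicle. Birc5 (survivin) was 1.64 and 1.77 times, Tacc3 of the mitotic spindle 2.01 and 1.78 times, Cdca3 2.13 and 1.76 times, and the histone gene Hist1h4d 1.61 and 1.80 times. Of a list of 16 proliferation genes, Stmn1, Birc5, Cdk1 and Rrm2 were 1.5-fold higher in both libraries. The median log2 ratio of the list was 0.67 in LC427 and 0.41 in vehicle, beside -0.02 over all genes tested in each library. Mki67, the usual mark of cycling cells, was 1.43 times the level of other gated cells in LC427 and 1.15 times in vehicle, and thus did not reach 1.5-fold. In LC427, set D cells had 137 CPM of Birc5, 60.1 CPM of Cdk1 and 36.2 CPM of Cdca3, against 112, 64.9 and 41.0 CPM in members, so these genes were not particular to members.

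The C1q genes, Adgre1 and Stab1 stood further above the other gated cells in LC427 than in vehicle, a difference that was not tested. C1qa, C1qb and C1qc were 2.03, 1.98 and 2.05 times the level of other gated cells in LC427 members, and 1.44, 1.41 and 1.38 times in vehicle members. Adgre1 was 2.10 and 1.33 times, and Stab1, a scavenger receptor, 1.94 and 1.45 times. Their lists as a whole did so less, with median log2 ratios to other gated cells of 0.48 in LC427 and 0.19 in vehicle for 11 complement genes, of which 0 were past 1.5-fold in both libraries, and 0.13 and 0.06 for 12 uptake and scavenger genes. The LC427 to vehicle ratio of C1qa was 0.925 in members and 0.656 in other gated cells, and that of Adgre1 was 0.726 and 0.458. Microglial genes were mixed. Of 10 tested, 3 were at least 1.5-fold higher than in other gated cells in both libraries and 1 lower, beside 1.45% and 3.64% of all genes. The median log2 ratio of this list to other gated cells was 0.77 in LC427 and 0.50 in vehicle, beside -0.02 over all genes in each. Sall1, a factor that defines microglia, had 0 UMIs in members of both libraries. The microglial receptor P2ry12 had 14.9 CPM in LC427 members and 14.3 CPM in vehicle members, close to the 12.1 CPM and 12.7 CPM of empty droplets.

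Genes lower in members than in other gated cells came from several cell types. Retnla, a secreted protein of alternatively activated macrophages, had 18.7 CPM in LC427 members against 141 CPM, and 37.4 CPM against 240 CPM in vehicle. Inhba, which encodes a chain of activin A, had 7.91 CPM against 57.3 CPM in LC427, and 19.1 CPM against 74.8 CPM in vehicle. Slpi, an inhibitor of neutrophil proteases, had 10.1 CPM against 76.0 CPM, and 11.02 CPM against 40.9 CPM. Ccl22 and Ccr7, genes of mature dendritic cells, were 0.173 and 0.241 times the level of other gated cells in LC427, and 0.249 and 0.276 times in vehicle. The interferon gene Rsad2 was 0.246 and 0.254 times, Ly6c1 0.266 and 0.191 times, and the granzyme gene Gzmc 0.0501 and 0.271 times. The stromal genes Col1a1 and Sparc were 0.214 and 0.265 times in LC427 and 0.133 and 0.216 times in vehicle, where 102 of the 139 Col1a1 UMIs of vehicle members lay in 1 cell. Single classes differed from their sum. In vehicle, Sparc had 56.9 CPM in members, against 33.3, 2.30, 6.10 and 757 CPM in set A, B, C and D cells. Col1a1 had 19.6 CPM in vehicle members, against 23.3, 2.30, 1.02 and 445 CPM in these classes. Ly6c1 and Retnla were also lower in vehicle set C cells than in members, and Rsad2 in set B cells. Low levels of these genes were thus not particular to members. Beyond the named genes, 7 of 14 tested type I interferon genes were at least 1.5-fold lower in members in both libraries.

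**Figure D3:**
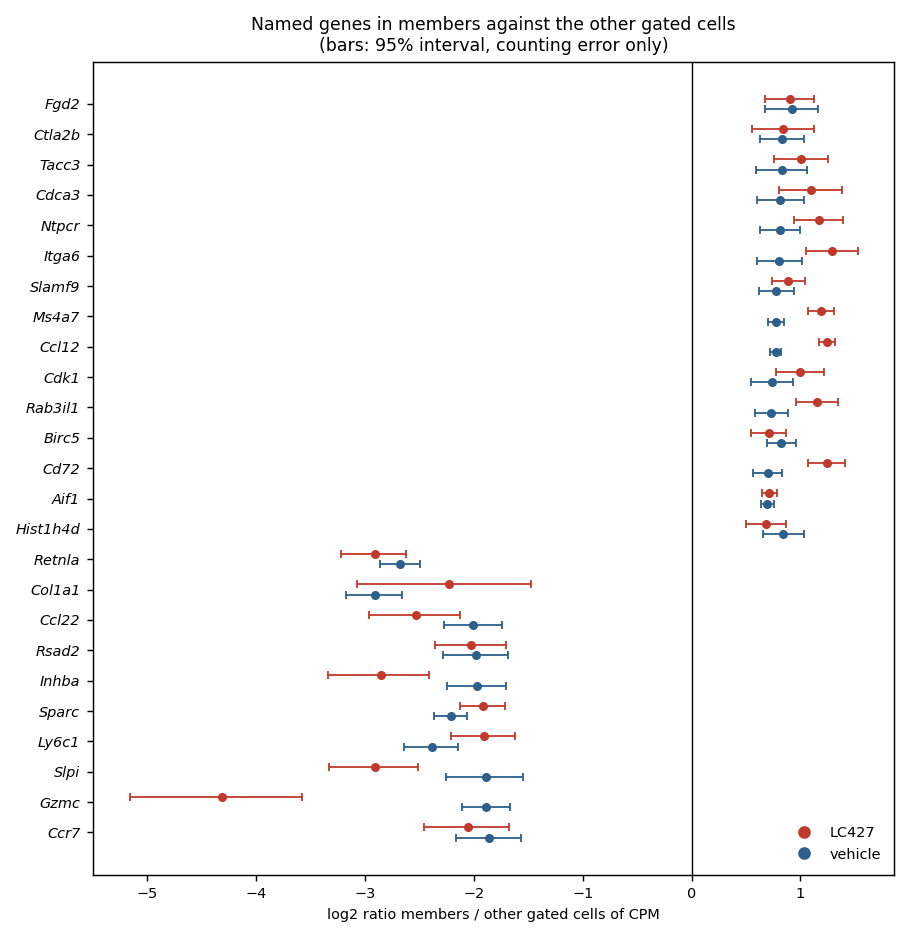
Log2 ratio of the CPM of members to that of the other gated cells (horizontal axis) for 15 named genes that were higher and 10 that were lower in both libraries, LC427 in red above vehicle in blue, with bars for the 95% interval of counting error. The higher genes lie between 1.61 and 2.44 times in LC427, and Gzmc is lowest there at 0.0501 times.

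The comparison of LC427 with vehicle members asks how these macrophages differed in treated tumours. Ifi207, Ifi204 and other type I interferon genes were among those higher in LC427 members, and chemokine, angiogenic, hypoxia, iron storage and lipid genes among those lower. Of 9419 genes tested, 8.12% were at least 1.5-fold higher in LC427 members and 3.95% at least 1.5-fold lower. These shares stand beside the list counts below, and few genes past the fold do not describe a list. The median log2 ratio of all genes tested was 0.12, slightly above 0. With ratios divided by that median, the counts of 765 higher and 372 lower genes became 450 higher and 597 lower.

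Ifi207, an interferon-inducible gene of the Ifi200 family, had 250 CPM in LC427 members and 86.8 CPM in vehicle members, a ratio of 2.88 (2.61 to 3.17). Its empty droplets differed too, at 165 CPM and 84.8 CPM, and the other gated cells had a ratio of 3.04. Spint1, a membrane inhibitor of serine proteases, had 121 CPM in LC427 members and 43.8 CPM in vehicle members, a ratio of 2.77 (2.42 to 3.18). Dennd5b, a regulator of Rab proteins, had 63.8 CPM in LC427 members and 20.6 CPM in vehicle members, with a ratio of 3.09 (2.54 to 3.78). Both were as far apart in other gated cells, with ratios of 3.62 for Spint1 and 3.46 for Dennd5b, so these differences were not confined to members. Rrbp1, a ribosome-binding protein of the endoplasmic reticulum, had 1160.0 CPM in LC427 members and 634 CPM in vehicle members. Nol7, a nucleolar protein, had 497 CPM in LC427 members and 252 CPM in vehicle members, with 426 CPM and 258 CPM in empty droplets. Psen2, a catalytic subunit of gamma-secretase, had 85.9 CPM and 40.0 CPM, and the adaptor gene Sla 89.9 CPM and 43.1 CPM. The rest of the named genes, Shtn1, Wdr43, Dleu2 and Rxylt1, had ratios of 2.09 to 2.39 in members and 1.86 to 2.25 in other gated cells. For all of the named higher genes except Ctsk, empty droplets were higher in LC427 too. They had 44.3 CPM of Dennd5b in LC427 and 11.4 CPM in vehicle, 66.2 and 32.0 CPM of Shtn1, and 66.8 and 35.2 CPM of Wdr43. For Sla they had 81.3 CPM in LC427 and 44.7 CPM in vehicle, near the levels of members. The part of free RNA in these differences was not tested.

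Ctsk, which encodes the collagen-cutting protease cathepsin K of osteoclasts, had the largest ratio and rested on 3 cells. It had 61.4 CPM in LC427 members and 4.24 CPM in vehicle members, a ratio of 14.5 (9.96 to 21.8). Of its 334 UMIs in LC427 members, 326 lay in cells with 128, 127 and 71 Ctsk UMIs. These 3 cells also held 77, 100 and 51 UMIs of Mmp9 and 63, 72 and 30 UMIs of Acp5, both genes of osteoclasts, and no Cx3cr1 UMI. They had entered through 2, 2 and 3 genes of set E, Ckb among them in all 3 with 9, 7 and 8 UMIs. Of the 30 Ctsk UMIs in vehicle members, 19 lay in 1 cell. Without the 3 members with most Ctsk UMIs in each library, 8 UMIs were left in LC427 members and 9 in vehicle members, a ratio of 1.16 (0.388 to 3.38) that gives no direction. Cells with at least 20 Ctsk UMIs numbered 12 in LC427 and 4 in vehicle, and 0 of the vehicle ones were members. Mmp9, with 43.2 CPM in LC427 members and 4.10 CPM in vehicle members, had 228 of 235 LC427 UMIs in its top 3 cells.

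Ccl24 (eotaxin-2), a chemokine for eosinophils, was the named gene furthest below vehicle. It had 9.74 CPM in LC427 members and 84.4 CPM in vehicle members, a ratio of 0.116 (0.0855 to 0.153), and the ratio was 0.0826 in other gated cells. Its 597 UMIs in vehicle were spread over 167 members, with 49 in the highest. Vegfa, the growth factor of blood vessels, had 95.1 CPM in LC427 members and 243 CPM in vehicle members, a ratio of 0.391 (0.354 to 0.432), against 0.565 in other gated cells. Thbs1 (thrombospondin 1) had 200.2 CPM and 429 CPM, and so a ratio of 0.467 (0.435 to 0.500), whereas in other gated cells it was 0.846. Cd68, a lysosomal glycoprotein used as a macrophage marker, had 92.7 CPM in LC427 members and 195 CPM in vehicle members, with 88.0 CPM and 96.2 CPM in empty droplets. Chil3, a chitinase-like protein, had 28.3 CPM and 108 CPM, and Ms4a4a 44.3 CPM and 97.2 CPM. All of these were more than 1.5-fold lower in other gated cells too, apart from Thbs1. The neutrophil chemokine Cxcl1 had 28.1 CPM in LC427 members and 75.9 CPM in vehicle members, the phosphatase gene Dusp5 45.2 CPM and 108 CPM, and Timp1, an inhibitor of metalloproteinases, 28.9 CPM and 67.3 CPM. Cbr2, Hilpda and Fabp5 had ratios of 0.388, 0.388 and 0.427, and are genes of sets A and D, whose count limited which cells became members. For all of the named lower genes except Thbs1 and Ms4a4a, empty droplets were lower in LC427 too. They had 14.4 CPM of Ccl24 in LC427 and 49.3 CPM in vehicle, and 85.7 and 170 CPM of Vegfa. LC427 members lay below LC427 empty droplets for Ccl24, Chil3, Cxcl1, Hilpda, Fabp5, Cbr2, Dusp5 and Thbs1. The part of free RNA in these differences was not tested.

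**Figure D4:**
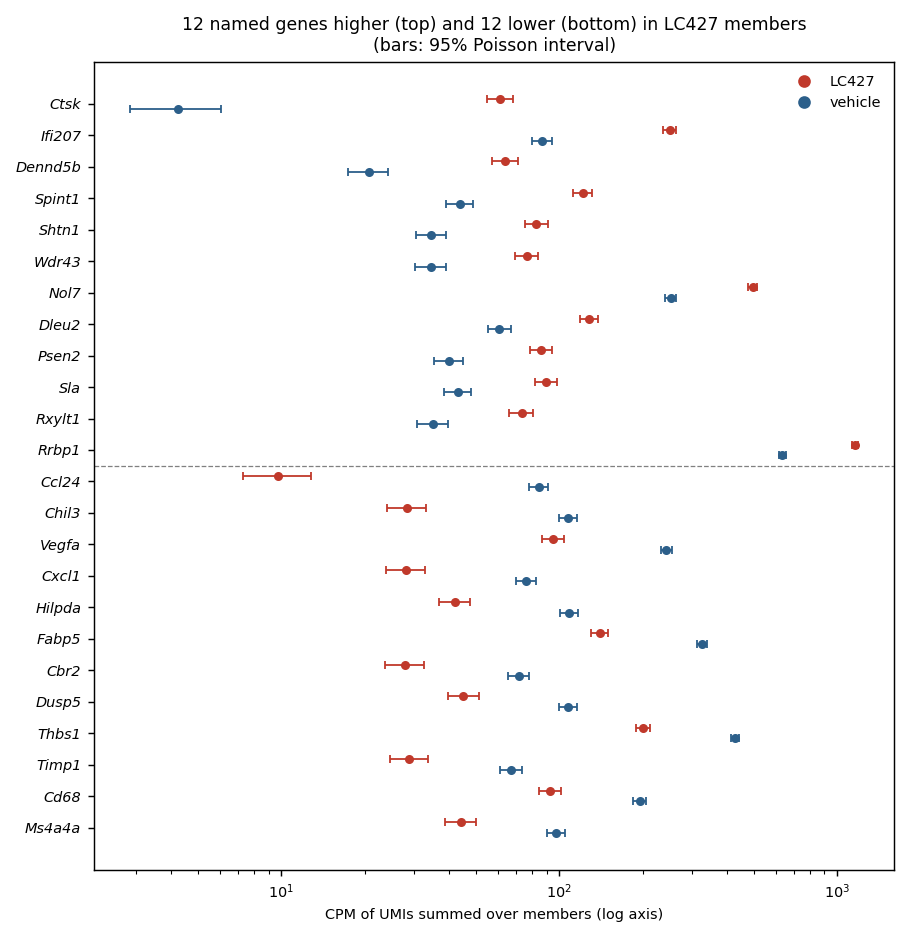
Level of the 12 named genes higher (top) and 12 lower (bottom) in LC427 members (horizontal log axis, CPM of UMIs summed over members), LC427 in red above vehicle in blue, with bars for the 95% Poisson interval. Ctsk stands at 61.4 CPM in LC427 and 4.24 CPM in vehicle with 3 cells behind the LC427 value, and Ccl24 at 9.74 CPM and 84.4 CPM.

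The genes of set E differed little between the libraries, and none by 1.5-fold. The LC427 to vehicle ratio was 1.10 (1.03 to 1.17) for Cx3cr1, 1.25 (1.15 to 1.36) for Ckb, 0.940 (0.900 to 0.982) for Gatm, 1.01 (0.926 to 1.10) for Itgb5 and 0.848 (0.826 to 0.871) for Pf4. Lgmn, outside the rule, had a ratio of 1.04 (1.01 to 1.07). In other gated cells the ratio was 0.757 for Cx3cr1, 0.654 for Gatm and 0.726 for Lgmn. The rule requires these genes in each member, so their evenness between libraries is partly set by the choice. Further genes of creatine metabolism were low. Gamt, the second enzyme of creatine synthesis, had 12.5 CPM in LC427 members and 19.1 CPM in vehicle members, a ratio of 0.655 (0.482 to 0.883). The creatine transporter gene Slc6a8 had 10.7 CPM and 14.4 CPM, and the kinase genes Ckmt1 and Ckmt2 had 0 UMIs.

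Secreted chemokines were lower in LC427 members as a list. Of 19 chemokine genes tested, 0 were at least 1.5-fold higher and 9 at least 1.5-fold lower, with a median log2 ratio of -0.50, against 0.12 over all genes. Ccl8, a chemokine of the MCP group, had 317 CPM in LC427 members and 1444 CPM in vehicle members, a ratio of 0.22 (0.209 to 0.231). Both levels lay below those of empty droplets, at 483 CPM and 1699 CPM. The monocyte chemokines Ccl2 and Ccl7 had ratios of 0.599 and 0.617, with 424 CPM and 446 CPM in LC427 members against 709 CPM and 723 CPM in vehicle members. Cxcl2, a neutrophil chemokine, had 1524 CPM in LC427 members and 2649 CPM in vehicle members, a ratio of 0.575 (0.561 to 0.591). Ccl4, Ccl5 and Ccl22 had ratios of 0.524, 0.590 and 0.524. Cxcl9, an interferon-gamma chemokine for T cells, ran the other way at 1049 CPM in LC427 members and 844 CPM in vehicle members, a ratio of 1.24 (1.20 to 1.29) that did not reach 1.5-fold. Of 9 chemokine receptor genes 0 were past 1.5-fold either way, and Ccr2 had 240 CPM in LC427 members and 168 CPM in vehicle members.

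Of 13 inflammatory genes 0 were higher and 6 lower, with a median log2 ratio of -0.57. Il1b, the cytokine interleukin 1 beta, had 530 CPM in LC427 members and 838 CPM in vehicle members, a ratio of 0.632 (0.605 to 0.661), whereas its ratio in other gated cells was 1.01. Nlrp3, the sensor of the inflammasome that matures it, had 76.5 CPM and 118 CPM. Il1a had 9.74 CPM in LC427 members and 26.7 CPM in vehicle members, and Il6 2.02 CPM and 5.94 CPM. The Il6 levels lay below those of empty droplets in both libraries, at 6.05 CPM and 9.48 CPM. Tnf had 29.8 CPM and 36.5 CPM, and so a ratio of 0.817. Of 12 growth factor genes 5 were lower and 0 higher, with a median of -0.39. Hbegf, a ligand of the EGF receptor, had 6.80 CPM in LC427 members and 48.1 CPM in vehicle members, a ratio of 0.142 (0.0980 to 0.199), and its 340 vehicle UMIs were spread over 148 members. Igf1 had 3.13 CPM and 10.0 CPM.

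Hypoxia and glycolysis genes were lower in part. Of 18 tested, 0 were higher and 6 lower, with a median of -0.35. The lower ones include Hilpda, a gene of set D whose count limited which cells became members. Gapdh, of the middle of glycolysis, had 881 CPM in LC427 members and 1722 CPM in vehicle members, a ratio of 0.512 (0.495 to 0.529). The glucose transporter gene Slc2a1 had 42.7 CPM and 66.6 CPM, and the mitophagy gene Bnip3 123 CPM and 188 CPM. Pkm, the last enzyme of glycolysis, had 1045 CPM in LC427 members and 938 CPM in vehicle members, and Hif1a, the oxygen-regulated factor itself, 357 CPM and 352 CPM. Of 11 arginine and polyamine genes 4 were lower and 0 higher. Arg1, the enzyme that splits arginine into ornithine and urea, had 1497 CPM in LC427 members and 2502 CPM in vehicle members, a ratio of 0.599 (0.583 to 0.615). Nos2, the inducible nitric oxide synthase, had 11.6 CPM and 32.2 CPM, below its empty droplets, and is a gene of set C.

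Iron storage and lipid genes were also lower. Of 6 iron and haem genes 3 were lower and 0 higher. The ferritin chain genes Fth1 and Ftl1 had 6930 CPM and 2334 CPM in LC427 members, against 11556 CPM and 3658 CPM in vehicle members. Of 16 lipid-associated genes 4 were lower and 2 higher, with a median of -0.29. Fabp5, among the lower ones, is a gene of set D and so was used by the rule. Apoe, the carrier protein of lipids, had 1671 CPM in LC427 members and 2596 CPM in vehicle members, a ratio of 0.643 (0.627 to 0.660). Abca1, which exports cholesterol, had 87.5 CPM and 163 CPM, and Trem2, a lipid receptor, 208 CPM and 283 CPM. Lpl (lipoprotein lipase) was among the higher ones, with 26.5 CPM in LC427 members and 10.7 CPM in vehicle members, a ratio of 2.47 (1.85 to 3.30), while its ratio in other gated cells was 1.05. Fabp4 had 9.19 CPM in LC427 members and 5.51 CPM in vehicle members.

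Type I interferon genes leaned higher, and few antigen presentation genes were past 1.5-fold either way. Of 14 type I interferon genes 4 were higher and 0 lower, with a median log2 ratio of 0.27 beside 0.12 over all genes. Ifi204, of the same family as Ifi207, had 173 CPM in LC427 members and 83.9 CPM in vehicle members, a ratio of 2.07 (1.86 to 2.29), with 193 CPM and 101 CPM in empty droplets. Ifit3 had 8.64 CPM and 4.52 CPM, and Usp18 14.7 CPM and 9.19 CPM. Rsad2, within 1.5-fold, had 16.9 CPM in LC427 members and 15.7 CPM in vehicle members. The list summed to 711 CPM in LC427 members and 417 CPM in vehicle members. Both sums lay below empty droplets, at 756 CPM and 496 CPM, and the part of free RNA was not tested. Much of the gap between the sums lay in Ifi207, with 250 CPM in LC427 members and 86.8 CPM in vehicle members, and in Ifi204. Without the top member of each library, the ratios of Isg15, Oas1a and Irf7 were 1.15, 1.18 and 0.943. The sums thus do not describe the list as a whole. Of 19 genes of the interferon-gamma response 1 was higher, Gbp3, with 51.1 CPM in LC427 members and 30.1 CPM in vehicle members. Of 8 MHC class II genes 1 was higher, their master regulator Ciita, with 34.8 CPM in LC427 members and 20.2 CPM in vehicle members, a ratio of 1.72 (1.38 to 2.15). The chain genes themselves moved less, H2-Ab1 having 2399 CPM in LC427 members and 2026 CPM in vehicle members, and Cd74, the invariant chain, 4266 CPM and 5010.0 CPM. Of 12 MHC class I genes 1 was lower, H2-Q7, at a ratio of 0.623. The median log2 ratio was 0.22 for the interferon-gamma list, 0.18 for MHC class II and -0.07 for MHC class I, beside 0.12 over all genes.

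Ligands and receptors that act on T cells were mixed, with 2 of 13 higher and 2 lower. Over all genes tested, 8.12% were higher and 3.95% lower. Cd80 and Cd86, the ligands of CTLA4 and CD28, had 15.4 CPM and 72.4 CPM in LC427 members, against 20.8 CPM and 66.7 CPM in vehicle members. Their ratios were 0.743 (0.562 to 0.979) and 1.09 (0.948 to 1.24). Cd274, which encodes PD-L1, had 69.5 CPM in LC427 members and 69.2 CPM in vehicle members, a ratio of 1.00 (0.875 to 1.15). Pdcd1lg2, which encodes PD-L2, had 8.27 CPM and 25.0 CPM, and so a ratio of 0.331 (0.233 to 0.461), with both levels below empty droplets. Havcr2, which encodes TIM-3, had 65.3 CPM in LC427 members and 36.5 CPM in vehicle members, a ratio of 1.79 (1.52 to 2.11), beside 61.8 CPM and 35.5 CPM in empty droplets. The CTLA4 ligands and PD-L1 thus lay within 1.5-fold, while PD-L2 and TIM-3 lay past it in opposite directions. Icosl had 11.6 CPM and 6.78 CPM, and Tnfsf9, the 4-1BB ligand, 14.7 CPM and 26.6 CPM.

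Lists of macrophage identity and housekeeping of the cell mostly had medians below the 0.12 of all genes tested. The median log2 ratio was -0.26 for complement, -0.24 for Fc receptor, -0.19 for microglial and -0.13 for macrophage identity genes. For uptake and scavenger genes it was 0.16. Over all genes tested, 8.12% were higher and 3.95% lower. Of 28 lysosome genes 1 was higher, Ctsk, and 1 lower, Atp6v0d2, with a median of 0.04, and Psap, Ctss and Ctsc had ratios of 1.16, 1.14 and 1.11. Of 11 complement genes 1 was higher, Cfb, with 66.9 CPM in LC427 members and 41.7 CPM in vehicle members, and 1 lower, C3, with 69.9 CPM and 109 CPM. C1qa had 1541 CPM in LC427 members and 1666 CPM in vehicle members. Of 12 macrophage identity genes Cd68 was lower, and Csf1r, the receptor of the macrophage growth factor, had 305 CPM in LC427 members and 332 CPM in vehicle members. Of 12 uptake and scavenger genes 0 passed 1.5-fold, and the mannose receptor gene Mrc1 had 366 CPM and 526 CPM, and so a ratio of 0.696. Of 6 Fc receptor genes 0 passed 1.5-fold. Of 10 microglial genes tested 2 were lower, Olfml3 with 11.6 CPM in LC427 members and 24.0 CPM in vehicle members, and Fcrls with 49.5 CPM and 79.4 CPM, which is a gene of set A and so was used by the rule.

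The counts of the next lists stand beside 8.12% higher and 3.95% lower over all genes tested. Their median log2 ratios were -0.39 for matrix, -0.16 for transcription factor, -0.07 for TGF-beta, 0.05 for proliferation and 0.16 for integrin genes. Of 28 transcription factor genes 5 were lower and 0 higher. Klf4 had 233 CPM in LC427 members and 356 CPM in vehicle members, the immediate early gene Egr1 59.9 CPM and 113 CPM, and Bhlhe40 75.8 CPM and 120.0 CPM. Nr1h3, which encodes the liver X receptor alpha, and Id3 had ratios of 0.644 and 0.540. Of 11 integrin genes 2 were higher, Itgb7 with 57.2 CPM in LC427 members and 32.4 CPM in vehicle members and Itga4 with 71.3 CPM and 44.5 CPM. Their protein products pair in the integrin alpha 4 beta 7. Of 12 TGF-beta genes 1 was higher, Tgfbi, with 2179 CPM in LC427 members and 1449 CPM in vehicle members, a ratio of 1.504 (1.465 to 1.545). Of 15 matrix genes 1 was higher, Mmp9, and 3 were lower, Timp1, Timp3 and Thbs1, while fibronectin (Fn1) had 1209 CPM and 1584 CPM. Of 16 proliferation genes 2 were higher, the replication helicase subunits Mcm2 and Mcm5, with 39.7 CPM and 61.0 CPM in LC427 members, against 26.1 CPM and 39.0 CPM in vehicle members.

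**Figure D5:**
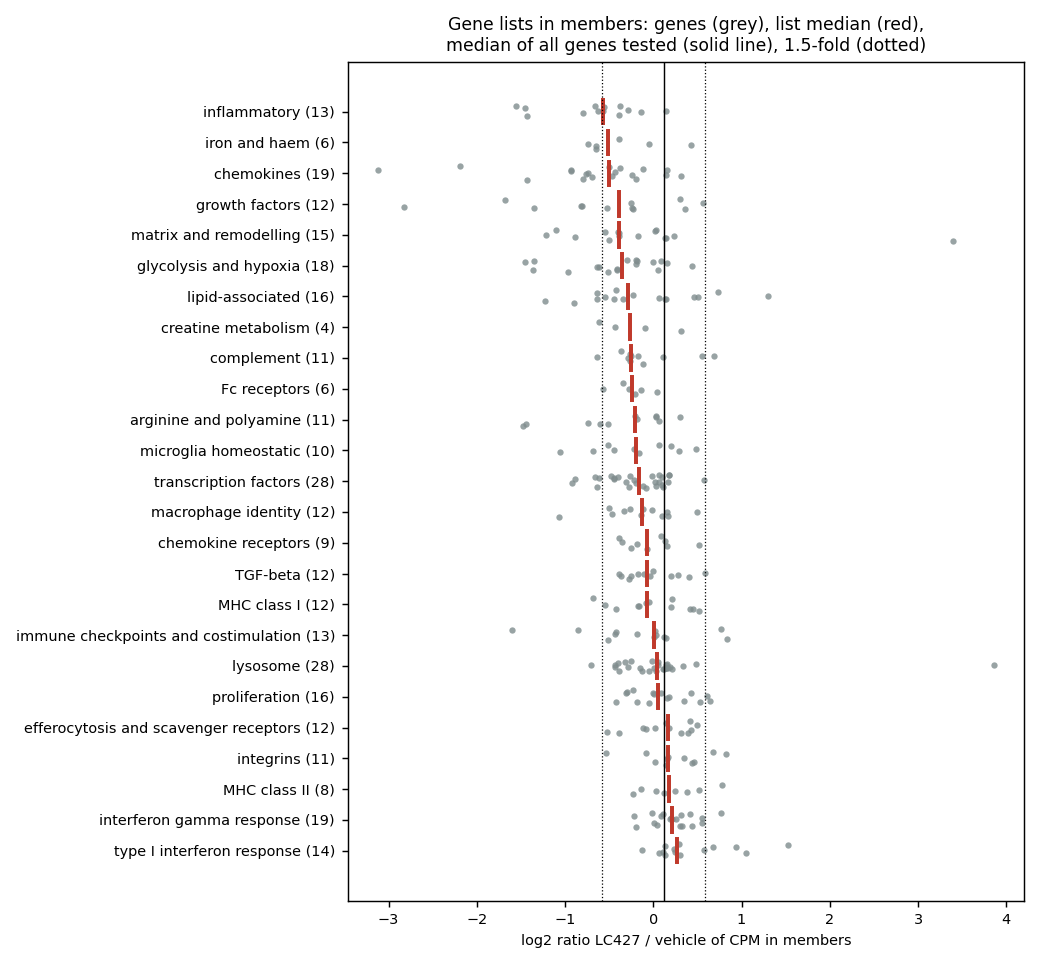
Log2 ratio of LC427 to vehicle members (horizontal axis) for each tested gene of the lists (grey points) with the list median (red bar), the median of all genes tested (solid line, 0.12) and 1.5-fold either way (dotted lines). The inflammatory, iron and chemokine lists have the lowest medians (-0.57, -0.52 and -0.50) and the type I interferon list the highest (0.27).

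The authors grouped each library's cells on its own, into 11 clusters for LC427 and 13 for vehicle. In the authors' deposited table the mean count of Gatm was highest in their cluster 6 of both libraries, at 1.25 in LC427 and 1.99 in vehicle. In the authors' deposited table Ckb was also highest in cluster 6, at 0.338 in LC427 and 0.343 in vehicle, while Pf4 was highest in cluster 1, at 6.84 and 10.1. Cx3cr1 was highest in cluster 6 for LC427, at 0.503, and in cluster 13 for vehicle, at 0.739, in the authors' deposited table, where cluster 6 followed at 0.708. In the authors' grouping too, therefore, the cluster with most Gatm and Ckb was not the one with most Pf4, and clusters of the same number were not matched between libraries.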

How the data were processed

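Single-cell RNA was measured in 1 LC427 and 1 vehicle library. The authors deposited unfiltered UMI counts over 32285 genes and a table per library with the mean count signal of each gene in each of their clusters. Cell Ranger 3.0.1, Seurat 3 and the build GRCm38 (mm10) are listed in the submitters' processing notes, while per the file headers the matrices were written by a later Cell Ranger release, so the version is uncertain. The members and gene lists were chosen with earlier results of these data known.

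Within each library the UMIs of a class were added up and scaled to CPM, with exact Poisson intervals, and ratios with exact conditional binomial intervals. UMIs of 1 cell are not independent, so these are too narrow. Thinning drew 1000 UMIs a cell without replacement, and no cell was lost. Genes with at least 50 UMIs over both libraries were called at 1.5-fold, and a count of 0 stood at 3 counts. Named genes had at least 50 CPM and were no lower than empty droplets in the higher library, ranked by the 95% bound nearest to 1, 12 each way. Against other gated cells, 15 higher and 10 lower were named by the ratio nearest to 1. List genes were named by UMIs or by the fold. Alternatives changed the limits, fold, minimum UMIs, thinning, weights and ties. No clustering and no doublet caller was run. Barcodes with UMIs of other cell types or with most UMIs were left out as alternatives. Cxcl11, Mx1, Mx2 and Lrrc33 were not analysed here. Promoter sequences are from RefSeq, and all 3 genes sought were found. Gene coordinates are from GENCODE. The steps were tested on simulated data. Python 3.11.15, numpy 2.4.6, scipy 1.17.1, pandas 2.3.3 and matplotlib 3.10.9 were used.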

Additional observations from a re-analysis of the deposited data

Results flagged for a closer look

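Chil3, the chitinase-like protein, was lower in LC427 members at a ratio of 0.263, with 28.3 CPM in LC427 members and 108 CPM in vehicle members. Outside the gate it ran the opposite way at a ratio of 2.23, with 20.8 CPM in LC427 cells and 9.34 CPM in vehicle cells, and the difference was not tested. Fabp4, a fatty acid binding protein, was higher in LC427 members at a ratio of 1.67, with 9.19 CPM in LC427 members and 5.51 CPM in vehicle members. Outside the gate its ratio was 0.0117, with 1.05 CPM in LC427 cells and 89.7 CPM in vehicle cells, and this difference was not tested either.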

How the results depend on the processing

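Each group had 1 library with no replicate check, and doublets were not called. No paired analysis was possible because each group has 1 library. The member share ratio of LC427 to vehicle was 0.856, and 0.977 with at least 2000 UMIs, 0.782 after thinning, 0.752 with at least 3 genes of set E and 0.776 with ties kept. The 765 genes higher in LC427 members became 476 after thinning, 450 with ratios divided by the median of all genes, 337 with at least 200 UMIs and 127 at a fold of 2. The 372 lower genes became 597 with ratios divided by the median, 631 with at least 20 UMIs, 182 with at least 200 UMIs and 90 at a fold of 2. Against other gated cells, the 137 higher genes became 280 with barcodes of 2 or more UMIs of other cell types left out and 274 with the 5% deepest gated cells left out, and the 343 lower genes became 150 and 222 there and 79 after thinning. The median log2 ratio of the creatine list turned to 0.21 after thinning, that of the type I interferon list became 0.97 after thinning and that of the complement list -0.38 with ratios divided by the median. The share ratio of left-out Cx3cr1 in LC427 was 2.42 without thinning, against 1.90. Leaving out members with at least 20 Ctsk UMIs, an alternative chosen after seeing the data, gave a log2 ratio of Ctsk of -1.52. That limit left in 1 vehicle cell with 19 of 30 UMIs, and without the 3 members with most Ctsk UMIs in each library, also chosen after seeing the data, it was 0.21, so no turn in direction is shown. The part of the changed sets of genes in these moves was not tested, nor was any other cause.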
